A study of Mus musculus with 10 samples.

Results

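Toll-like receptors are membrane proteins of the innate immune system, and 7 of them (Tlr1, Tlr2, Tlr3, Tlr4, Tlr5, Tlr7 and Tlr9) are described here with Cd14, Ly96 and Myd88, which bring ligand to them or carry their signal. These 10 genes were picked by name from a table of 56748 mouse genes, and each name matched 1 gene. The measurements are RNA-seq of total RNA from 10 mouse gastric tumours. Of these, 5 are labelled inflamed and come from animals of the genotype Tff1-CreERT2;Apcfl/fl;Trp53fl/fl, in which a tamoxifen-inducible Cre driven by the promoter of Tff1, a gene of gastric surface mucous cells, deletes the floxed parts of the tumour suppressors Apc and Trp53. The other 5 are labelled desert, the term for a tumour with few immune cells, and come from orthotopic allografts, that is, tumour cells grafted into the organ they belong to, with the genotype given as wild type. The sources used here do not give what the grafted cells are or carry, the age of the animals, or any date or batch. In all 10 samples the tumour type goes with 1 genotype and 1 model, so these cannot be told apart. Nothing in the labels says that the 5 tumours of a type came from separate animals, so p-values measure the spread between these samples.

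Toll-like receptors recognise molecules that microbes share. Tlr4 at the cell surface recognises lipopolysaccharide, a part of the outer membrane of Gram-negative bacteria, with Ly96 (also called MD-2) as the subunit that binds the lipid and Cd14 as the protein that hands it over. Tlr2 pairs with Tlr1 or Tlr6 to recognise bacterial lipopeptides, and Tlr5 recognises flagellin, the protein of bacterial flagella. Tlr3, Tlr7 and Tlr9 sit in endosomes and recognise double-stranded RNA, single-stranded RNA and DNA with unmethylated CpG. Myd88 is the adaptor through which these receptors other than Tlr3 activate NF-kB, and Tlr3 signals through the adaptor Ticam1 (TRIF). In the stomach such receptors are made by epithelial cells as well as by macrophages and other leukocytes.

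Each library held between 14148147 and 16951640 reads in genes, recovered from the steps of the deposited values. Values are in FPKM (fragments per kilobase of gene, scaled to a total for the library). Levels of different genes can therefore be set side by side. That total was 0.980 to 1.12 times the reads in genes in inflamed tumours and 1.04 to 1.15 times in desert tumours. In inflamed tumour 4 it was smaller than the reads in genes, and the sources used here do not say how it was set. Inflamed libraries correlated with each other at 0.926 to 0.975 and desert libraries at 0.952 to 0.976, against 0.701 to 0.765 between the types. Apc, one of the floxed genes, ranged from 5.33 to 8.29 FPKM in inflamed tumours and from 3.00 to 5.58 FPKM in desert tumours, and Trp53 from 7.05 to 10.4 FPKM in inflamed tumours and from 1.89 to 3.47 FPKM in desert tumours. Inflamed tumour 4 stood apart in its library, with 3.70% of reads from mitochondrial genes, against 2.02% to 2.44% in the other inflamed tumours, and an FPKM sum of 356133, against 280795 to 312690 in those. The mitochondrial share also separated the types, at 2.02% to 3.70% in inflamed tumours and 1.38% to 1.76% in desert tumours, and its part in the results was not tested. The values of Apc and Trp53 cover whole genes, so they do not measure loss of the floxed parts. Of the 16750 genes with a mean of at least 0.5 FPKM, limma's moderated test on log2(FPKM + 1) found 62.2% different between the types at an adjusted p under 0.05, with 31.0% higher and 31.2% lower in inflamed tumours, and 48.9% had groups that did not overlap. Every count below stands against that background. With no filter, 12007 of 34466 genes were called. With TPM in place of FPKM the median difference of all tested genes moved to -0.28, against -0.01 with FPKM, and genes higher in inflamed tumours made up 35.0% of those called, against 49.9% with FPKM.

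All 10 genes passed the filter on low values. In inflamed tumours 6 of them were higher (Cd14, Tlr4, Ly96, Myd88, Tlr1 and Tlr3), each with groups that did not overlap, where 31.0% of all tested genes were higher and 24.4% were higher with no overlap. Tlr5 was lower, and Tlr2, Tlr7 and Tlr9 did not pass the test. Tlr4 and Tlr9 averaged under 0.5 FPKM in desert tumours, and Tlr5 did in inflamed tumours, so these genes passed the filter through the other type. The median difference of the 10 genes was 0.96 on the log2 scale, against -0.01 over all tested genes.

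**Figure D1:**
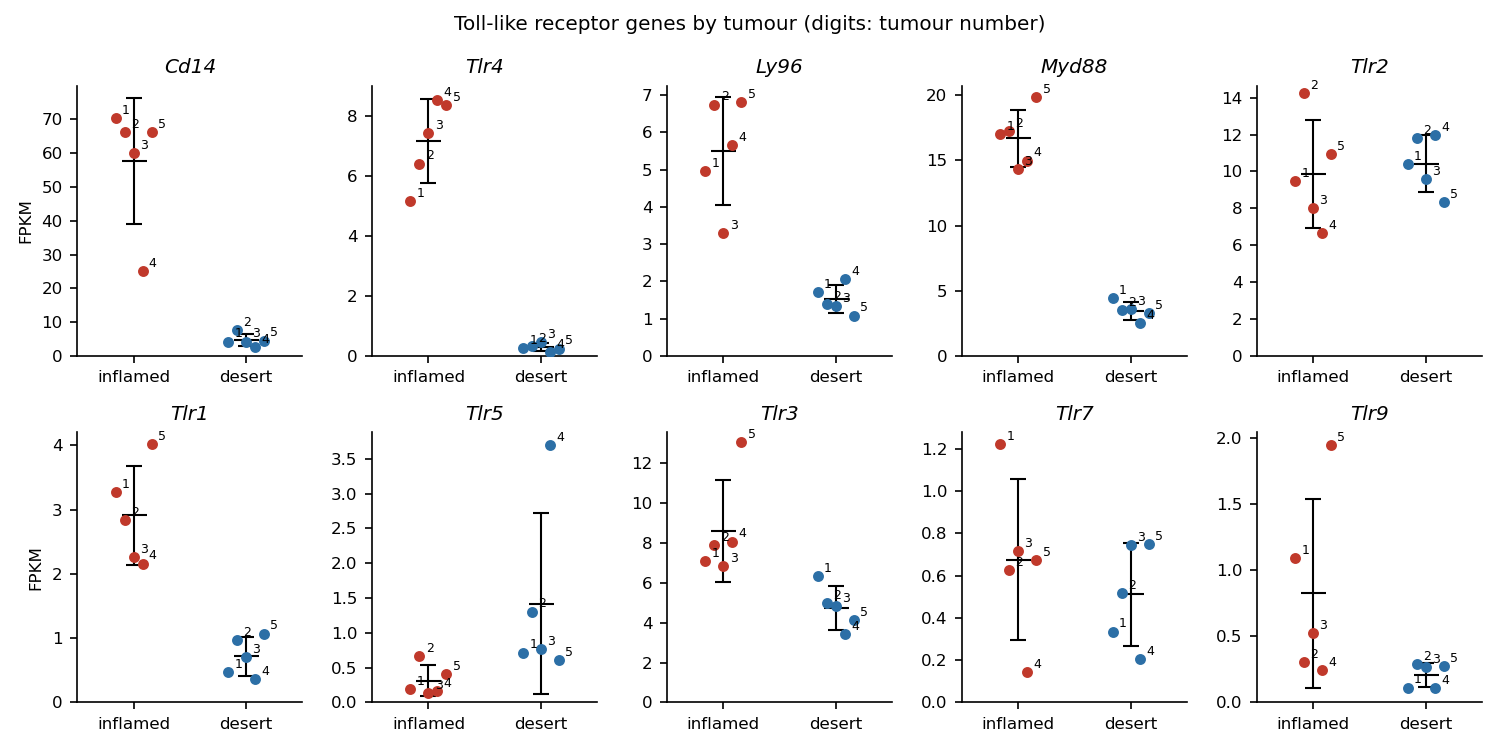
FPKM (linear axis from 0) of each of the 10 genes in 5 inflamed tumours, left, and 5 desert tumours, right; points are tumours with their number and black bars the mean and SD. For Cd14, Tlr4, Ly96, Myd88, Tlr1 and Tlr3 the inflamed points all lie above the desert points, whereas those of Tlr2 and Tlr7 are interleaved.

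The 3 genes of the lipopolysaccharide receptor were all higher in inflamed tumours, and Cd14 stood highest in level among the 10 genes there. Cd14 (ENSMUSG00000051439), a lipid-anchored protein on myeloid and some epithelial cells, lies at chr18:36858120-36859851 on the minus strand. It had 70.5, 66.3, 60.0, 25.0 and 66.1 FPKM in inflamed tumours 1 to 5, against 4.25, 7.68, 4.23, 2.61 and 4.54 FPKM in desert tumours 1 to 5. Inflamed tumour 4, whose library stood apart as given above, lay well below the rest of its group and still above every desert tumour. The means were 57.6 ± 18.6 FPKM in inflamed tumours and 4.66 ± 1.85 FPKM in desert tumours (SD, n = 5 per type), a ratio of 12.4. On the log2(FPKM + 1) scale the difference was 3.34 (SE 0.30), with an adjusted p of 3.78e-06 by limma. Between 659 and 2150 reads lay behind each inflamed value and between 86 and 226 behind each desert value.

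Tlr4 (ENSMUSG00000039005), the signalling receptor for lipopolysaccharide, lies at chr4:66745821-66848521 on the plus strand. It had 5.14, 6.40, 7.40, 8.50 and 8.33 FPKM in inflamed tumours 1 to 5, against 0.258, 0.339, 0.470, 0.132 and 0.247 FPKM in desert tumours 1 to 5. The inflamed tumours lay close together and far above the desert tumours. Inflamed tumour 4, the lowest for Cd14, was the highest for Tlr4 in FPKM, just above inflamed tumour 5. It also had the largest FPKM sum, and as a share of that sum Tlr4 was higher in inflamed tumour 5. The means of 7.16 ± 1.41 FPKM in inflamed tumours and 0.289 ± 0.125 FPKM in desert tumours (SD, n = 5 per type) stood at a ratio of 24.7. The difference was 2.65 (SE 0.14) on the log2(FPKM + 1) scale, with an adjusted p of 5.87e-08 by limma. The added 1 shrinks the difference of genes this low in desert tumours, where 14 to 42 reads lay behind each value. With 0.1 added in place of 1, the difference was 4.26.

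The deposited table also holds, inside the Tlr4 locus and on the same strand, a long non-coding RNA that it describes as sense intronic to Tlr4 (ENSMUSG00000121059, chr4:66762713-66764269). This transcript had 6.78, 7.36, 8.27, 11.6 and 9.77 FPKM in inflamed tumours, against 0.209, 0.491, 0.399, 0.169 and 0.237 FPKM in desert tumours, a difference of 2.89 (SE 0.14) with an adjusted p of 4.41e-08 by limma. Its level stood near that of Tlr4 in each type, and both were highest in FPKM in inflamed tumour 4. The sources used here do not say how reads that lie in both genes were assigned.

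Ly96 (ENSMUSG00000025779), the lipid-binding partner of Tlr4, lies at chr1:16758275-16779835 on the plus strand. It had 4.95, 6.74, 3.31, 5.66 and 6.82 FPKM in inflamed tumours, against 1.72, 1.38, 1.34, 2.06 and 1.08 FPKM in desert tumours. Its groups did not overlap, but the gap was narrower than for Cd14 or Tlr4. The means were 5.496 ± 1.45 FPKM in inflamed tumours and 1.52 ± 0.379 FPKM in desert tumours (SD, n = 5 per type), a ratio of 3.62. The difference on the log2(FPKM + 1) scale was 1.35 (SE 0.17), with an adjusted p of 5.27e-05 by limma.

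Myd88 (ENSMUSG00000032508), the shared adaptor, lies at chr9:119165000-119170477 on the minus strand. It had 17.04, 17.2, 14.3, 15.0 and 19.8 FPKM in inflamed tumours, against 4.45, 3.52, 3.62, 2.49 and 3.27 FPKM in desert tumours. The inflamed values varied little, with a standard deviation of 13.01% of the mean, the smallest share among the 10 genes in that group. The means were 16.7 ± 2.17 FPKM in inflamed tumours and 3.47 ± 0.705 FPKM in desert tumours (SD, n = 5 per type), a ratio of 4.81. The difference was 1.99 (SE 0.13) on the log2(FPKM + 1) scale, with an adjusted p of 2.61e-07 by limma. Its 5′ end overlaps that of Acaa1a, a peroxisomal thiolase gene on the opposite strand, which averaged 29.0 ± 8.43 FPKM in inflamed tumours and 12.9 ± 2.01 FPKM in desert tumours (SD, n = 5 per type) and was also called higher. The sources used here do not say whether the counting used strand, and 7.42% of the 50-base stretches of Myd88's annotated transcripts are shared with Acaa1a, so some reads of the pair could not be told apart.

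The lipopeptide receptors Tlr2 and Tlr1 differed from each other. Tlr2 (ENSMUSG00000027995), the subunit that all Tlr2 receptor pairs share, lies at chr3:83743579-83749074 on the minus strand. It had 9.48, 14.3, 8.03, 6.65 and 11.0 FPKM in inflamed tumours, against 10.4, 11.8, 9.58, 11.98 and 8.33 FPKM in desert tumours. The values of the types were interleaved, with the highest and the lowest both in inflamed tumours. The means were 9.87 ± 2.93 FPKM in inflamed tumours and 10.4 ± 1.53 FPKM in desert tumours (SD, n = 5 per type). The difference was -0.10 (SE 0.17, 95% interval -0.49 to 0.28) on the log2(FPKM + 1) scale, with an adjusted p of 0.636 by limma, so the interval leaves room for a change of either sign.

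Tlr1 (ENSMUSG00000044827), a partner of Tlr2 for triacylated lipopeptides, lies at chr5:65082022-65090906 on the minus strand. It had 3.27, 2.84, 2.26, 2.16 and 4.02 FPKM in inflamed tumours, against 0.467, 0.967, 0.706, 0.361 and 1.07 FPKM in desert tumours. The lowest inflamed tumour had more Tlr1 than the highest desert tumour. The means of 2.91 ± 0.767 FPKM in inflamed tumours and 0.715 ± 0.307 FPKM in desert tumours (SD, n = 5 per type) stood at a ratio of 4.07, and the difference was 1.19 (SE 0.17) on the log2(FPKM + 1) scale with an adjusted p of 1.02e-04 by limma. Tlr1 and Tlr6 are near-identical copies over part of their length: 15.4% of the 50-base stretches of Tlr1 transcripts occur in another gene, chiefly Tlr6, and 12.3% of those of Tlr6 do. The sources used here do not say how such reads were counted, so the Tlr1 and Tlr6 levels carry that uncertainty. Tlr6, the partner of Tlr2 for diacylated lipopeptides, averaged 0.634 ± 0.151 FPKM in inflamed tumours and 0.508 ± 0.115 FPKM in desert tumours (SD, n = 5 per type), with an adjusted p of 0.393 by limma.

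Tlr5 (ENSMUSG00000079164), the flagellin receptor, lies at chr1:182782353-182804010 on the plus strand and was the only one of the 10 genes called lower in inflamed tumours. It had 0.197, 0.663, 0.132, 0.165 and 0.412 FPKM in inflamed tumours, against 0.716, 1.30, 0.766, 3.70 and 0.609 FPKM in desert tumours. Desert tumour 4 was far above the rest, and inflamed tumour 2 lay above desert tumour 5, so the groups overlapped. The means were 0.314 ± 0.224 FPKM in inflamed tumours and 1.42 ± 1.30 FPKM in desert tumours (SD, n = 5 per type), and the difference was -0.77 (SE 0.28) with an adjusted p of 0.0309 by limma. The call was lost with no filter on low values (adjusted p = 0.0540), and without inflamed tumour 1 (0.0598), inflamed tumour 3 (0.0647), inflamed tumour 4 (0.0591) or desert tumour 2 (0.0580) in the same limma test. Without desert tumour 4, the highest, the call held but the difference was smaller (-0.49, adjusted p = 0.0225 by limma). Between 12 and 58 reads lay behind each inflamed value.

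Among the endosomal receptors, Tlr3 was higher in inflamed tumours, and Tlr7 and Tlr9 did not pass the test. Tlr3 (ENSMUSG00000031639), the receptor for double-stranded RNA, lies at chr8:45848702-45864117 on the minus strand. It had 7.08, 7.91, 6.83, 8.08 and 13.1 FPKM in inflamed tumours, against 6.35, 4.97, 4.83, 3.43 and 4.14 FPKM in desert tumours. The groups did not overlap, but inflamed tumour 3 and desert tumour 1 lay close, and inflamed tumour 5 was well above the rest. The means of 8.59 ± 2.56 FPKM in inflamed tumours and 4.74 ± 1.08 FPKM in desert tumours (SD, n = 5 per type) stood at a ratio of 1.81, and the difference was 0.73 (SE 0.18) with an adjusted p of 0.00422 by limma.

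Tlr7 (ENSMUSG00000044583), the receptor for single-stranded RNA, lies at chrX:166087925-166113554 on the minus strand. It had 1.22, 0.625, 0.715, 0.145 and 0.673 FPKM in inflamed tumours, against 0.335, 0.519, 0.746, 0.206 and 0.749 FPKM in desert tumours. The values overlapped, and the highest and the lowest were both inflamed. The means were 0.676 ± 0.383 FPKM in inflamed tumours and 0.511 ± 0.243 FPKM in desert tumours (SD, n = 5 per type), with a difference of 0.13 (SE 0.18, 95% interval -0.27 to 0.53) and an adjusted p of 0.542 by limma.

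Tlr9 (ENSMUSG00000045322), the receptor for CpG DNA, lies at chr9:106099797-106104082 on the plus strand. It had 1.09, 0.307, 0.526, 0.246 and 1.95 FPKM in inflamed tumours, against 0.112, 0.288, 0.268, 0.106 and 0.273 FPKM in desert tumours. Inflamed tumour 5 was the highest and inflamed tumour 4 lay within the desert range. The means were 0.824 ± 0.712 FPKM in inflamed tumours and 0.209 ± 0.0918 FPKM in desert tumours (SD, n = 5 per type), and the difference of 0.52 (SE 0.22) had an adjusted p of 0.0631 by limma. It passed limma's test with 0.1 added in place of 1 (difference 1.31, adjusted p = 0.0427). It also passed when inflamed tumour 2 was left out (0.62, adjusted p = 0.0398) or inflamed tumour 4 (0.63, adjusted p = 0.0278). Without inflamed tumour 1 or 5, the highest 2, its mean fell under the filter and it was not tested, and in the other alternatives it did not pass. Between 13 and 111 reads lay behind each inflamed value and between 6 and 18 behind each desert value.

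**Figure D2:**
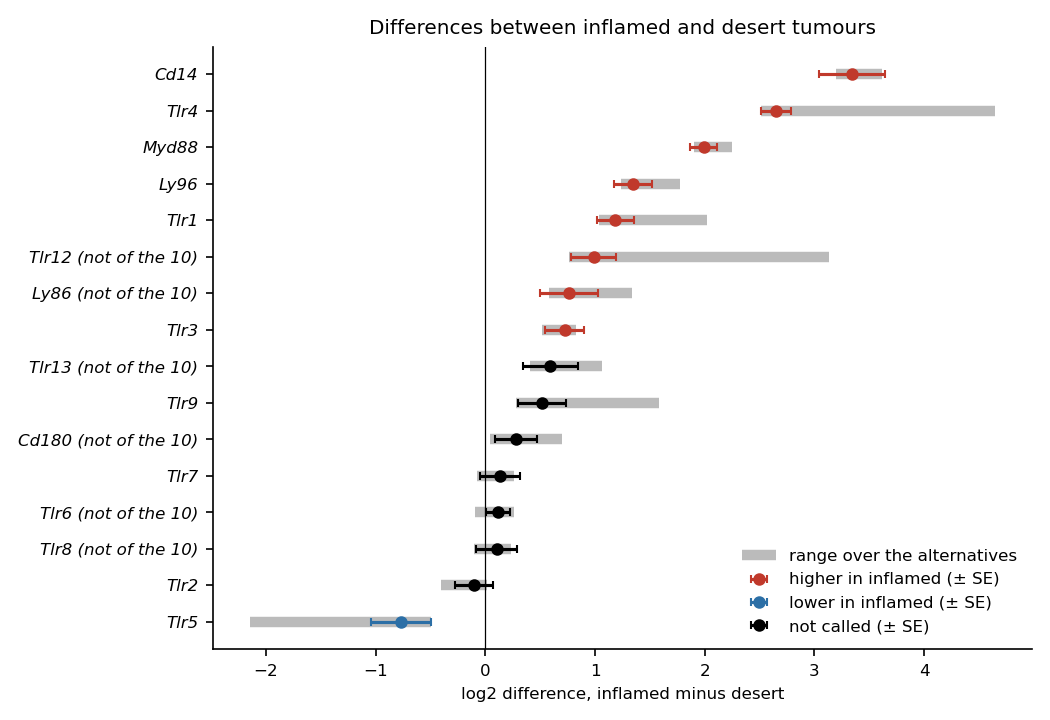
Difference (inflamed minus desert, log2(FPKM + 1)) of the 10 genes and of the other tested family genes from limma, with points for the value, thin bars for its standard error and grey bars for the range over the alternatives, of which the added 0.1, TPM and voom use other scales. Tlr4, Cd14, Myd88, Ly96, Tlr1 and Tlr3 lie above 0 over the whole range, while the range of Tlr2 spans 0.

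Ranked by mean FPKM, the genes in inflamed tumours stood in the order Cd14, Myd88, Tlr2, Tlr3, Tlr4, Ly96, Tlr1, Tlr9, Tlr7 and Tlr5. Neighbours in that order overlapped in their values except Cd14 and Myd88, Myd88 and Tlr2, and Tlr1 and Tlr9. In desert tumours the order was Tlr2, Tlr3, Cd14, Myd88, Ly96, Tlr5, Tlr1, Tlr7, Tlr4 and Tlr9, where the values of Tlr2 and Tlr3 and those of Myd88 and Ly96 did not overlap. Tlr4 thus stood 5th in inflamed tumours and 9th in desert tumours, and Tlr2 stood 3rd in inflamed tumours and 1st in desert tumours.

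Ratios between genes within a tumour do not depend on how a library was scaled apart from the value added, and 10 of them were compared with an exact two-sided permutation test over the tumours, whose smallest p is 0.00794. The ratio of Tlr2 to Tlr4 in FPKM ran from 0.782 to 2.23 with a median of 1.32 in inflamed tumours, and from 20.4 to 90.5 with a median of 34.8 in desert tumours. As log2((Tlr2 + 1)/(Tlr4 + 1)) it averaged 0.39 ± 0.54 in inflamed tumours and 3.14 ± 0.27 in desert tumours (SD, n = 5 per type), with an exact p of 0.00794 and an adjusted p of 0.0132 over the 10 ratios. The level of Tlr2 was thus near that of Tlr4 in inflamed tumours and far above it in desert tumours. The ratio of Tlr2 to Tlr1 was likewise lower in inflamed tumours, at 1.46 ± 0.31 against 2.74 ± 0.40 in desert tumours on the same log2 scale (exact adjusted p = 0.0132).

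Within the lipopolysaccharide receptor, Ly96 differed between the types by less than Tlr4 and Cd14 did, and Cd14 and Tlr4 were not separated. The ratio of Ly96 to Tlr4 in FPKM had a median of 0.818 in inflamed tumours and 4.40 in desert tumours, and on the log2 scale it averaged -0.34 ± 0.41 in inflamed tumours and 0.96 ± 0.31 in desert tumours (exact adjusted p = 0.0132). The ratio of Cd14 to Ly96 on that scale was 3.12 ± 0.72 in inflamed tumours and 1.12 ± 0.60 in desert tumours (exact adjusted p = 0.0132). The ratio of Cd14 to Tlr4 depended on the value added and on the scale. With 1 added it differed by 0.69 (exact adjusted p = 0.127) and with 0.1 added by -0.67 (exact adjusted p = 0.176). With TPM it differed by -0.26 (exact adjusted p = 0.611). Its median in FPKM was 8.11 in inflamed tumours and 18.4 in desert tumours. Without inflamed tumour 4, the one low in Cd14, it differed by 1.03 (exact adjusted p = 0.0198) with 1 added. Among the endosomal receptors, the ratio of Tlr3 to Tlr7 differed by 0.59 (exact adjusted p = 0.0970) and that of Tlr9 to Tlr7 by 0.38 (exact adjusted p = 0.0893), and each passed under some alternatives: Tlr3 to Tlr7 without inflamed tumour 1 (0.75, exact adjusted p = 0.0397), and Tlr9 to Tlr7 with 0.1 added (1.04, exact adjusted p = 0.0298), with TPM (0.77, exact adjusted p = 0.0397) and without inflamed tumour 2 (0.48, exact adjusted p = 0.0198).

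**Figure D3:**
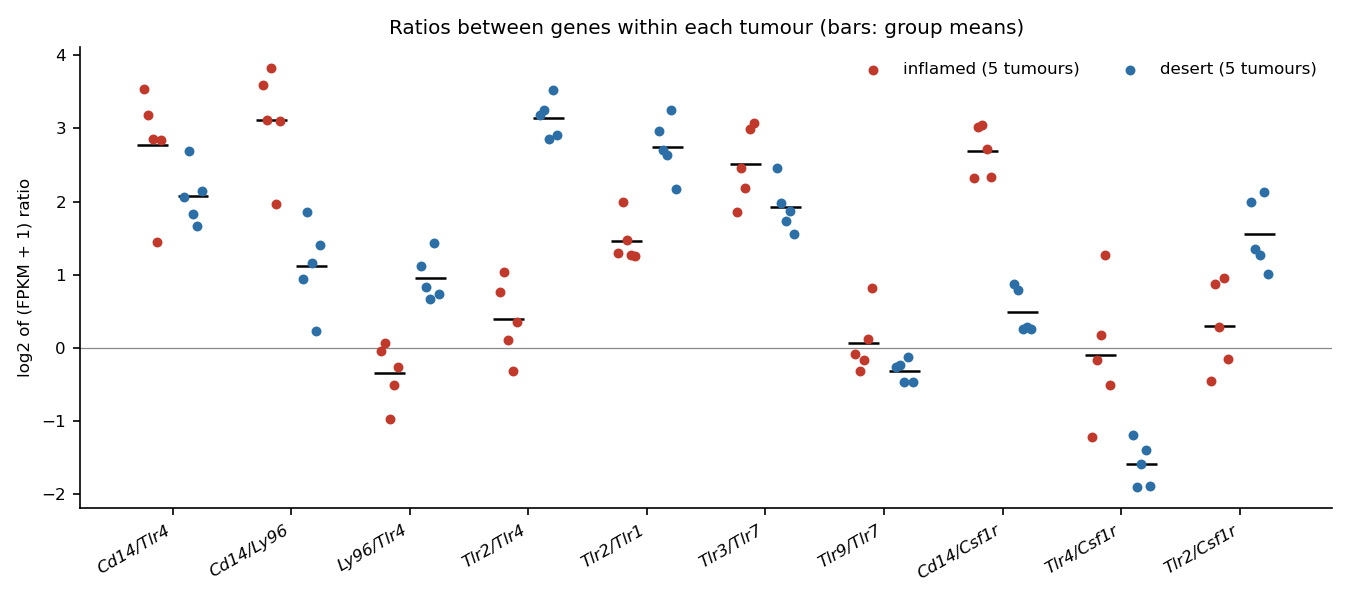
The 10 ratios between genes in each tumour, as log2((a + 1)/(b + 1)) of FPKM, with inflamed tumours left of desert tumours; points are tumours and lines are means of 5. Tlr2 to Tlr4 is separated furthest, with means of 0.39 in inflamed tumours and 3.14 in desert tumours, while Cd14 to Tlr4 overlaps.

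These are bulk samples, in which fewer cells of a type and less RNA per cell cannot be told apart. Markers of leukocytes moved with the result: all 3 of the general leukocyte list (Ptprc, Coro1a and Laptm5) were higher in inflamed tumours, with a summed level of 15.5 to 47.2 FPKM in inflamed tumours and 4.08 to 11.2 FPKM in desert tumours. Of 8 macrophage markers, Csf1r and Fcgr1 were higher and 6 did not pass the test, among them Adgre1 at 3.74 ± 1.67 FPKM in inflamed tumours and 2.37 ± 0.613 FPKM in desert tumours. Their sum was 55.0 to 231 FPKM in inflamed tumours and 50.4 to 122 FPKM in desert tumours. The share of macrophage markers called higher did not exceed the 31.0% of all tested genes. Of 6 neutrophil markers, 5 were higher and Ly6g was under the filter, with a sum of 8.12 to 169 FPKM in inflamed tumours and 0.785 to 1.57 FPKM in desert tumours. The 5 T cell markers were all higher, at a sum of 5.66 to 16.5 FPKM in inflamed tumours and 0.303 to 0.811 FPKM in desert tumours. Every tested neutrophil and T cell marker averaged under 0.5 FPKM in desert tumours. These markers passed the filter through the inflamed type, so the filter had a part in their counts.

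The 5 markers of conventional dendritic cells were all under the filter, with sums of 0.992 to 2.53 FPKM in inflamed tumours and 0.337 to 1.18 FPKM in desert tumours. For plasmacytoid dendritic cells, which use Tlr7 and Tlr9, Siglech reached at most 0.117 FPKM in any tumour, Ccr9 was under the filter, and Klk1, which exocrine glands also make, was higher. Of 5 B cell markers Cd79a and Cd79b were higher, the others were under the filter, and Ms4a1 was listed at 0 in every desert tumour. Of 4 mast cell markers 3 were higher, with a sum of 89.9 to 417 FPKM in inflamed tumours and 1.87 to 4.70 FPKM in desert tumours, where Mcpt1 was listed at 0 in every tumour. Higher too were 2 of 4 epithelial markers (sums of 2409 to 4044 FPKM in inflamed tumours and 1348 to 1999 FPKM in desert tumours). So were 4 of 5 gastric markers (5065 to 40428 FPKM in inflamed tumours and 0.357 to 7.70 FPKM in desert tumours). Of the endothelial markers 2 of 3 were higher, and of the fibroblast markers 1 of 4. Over all tested genes 31.0% were higher, a share that the fibroblast markers did not exceed. Klk1, Cd79a, Cd79b, Mcpt1, Mcpt2, Tff1 and Tff2 averaged under 0.5 FPKM in desert tumours and passed the filter through the inflamed type. The part of these cell types in the levels of the Toll-like receptors was not tested.

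Set against Csf1r, the receptor of macrophage growth factor, the receptors did not move as one. Csf1r averaged 8.45 ± 4.31 FPKM in inflamed tumours and 2.97 ± 0.983 FPKM in desert tumours (SD, n = 5 per type). The ratio of Cd14 to Csf1r in FPKM was 5.30 to 9.37 in inflamed tumours and 1.25 to 2.27 in desert tumours, and on the log2 scale it averaged 2.69 ± 0.35 in inflamed tumours and 0.49 ± 0.31 in desert tumours (exact adjusted p = 0.0132). Cd14 was thus higher by more than Csf1r was.

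The ratio of Tlr4 to Csf1r in FPKM was 0.386 to 2.88 in inflamed tumours and 0.0674 to 0.139 in desert tumours, and on the log2 scale, where the groups overlapped, it averaged -0.09 ± 0.92 in inflamed tumours and -1.59 ± 0.31 in desert tumours (exact adjusted p = 0.0227). The ratio of Tlr2 to Csf1r went the other way, at 0.30 ± 0.62 in inflamed tumours and 1.55 ± 0.48 in desert tumours on the log2 scale (exact adjusted p = 0.0132). Tlr2 itself was not called (difference -0.10), so this ratio follows the higher Csf1r of inflamed tumours and depends on the choice of Csf1r. Within the inflamed type, tumour 4 was lowest for 5 of the 10 genes and was also lowest for Ptprc, Csf1r and Adgre1. Its Tlr4 was the highest in FPKM, but not as a share of the FPKM sum, which was largest in that tumour. Of the mast cell, gastric and epithelial markers, all but Kit and Epcam were highest in FPKM in inflamed tumour 4 too. As a share of the FPKM sum, Krt18 and Cdh1 were not highest there. Krt18 stood at 835 FPKM in inflamed tumour 4 and 771 FPKM in inflamed tumour 1. Cdh1 stood at 325 FPKM in inflamed tumour 4 and 321 FPKM in inflamed tumour 5. Mcpt1 stood at 239 FPKM in inflamed tumour 4 and 39.4 to 115 FPKM in the other inflamed tumours. Gkn1 stood at 11752 FPKM in inflamed tumour 4 and 495 to 3298 FPKM in the others, and Krt8 at 2542 FPKM and 1068 to 1800 FPKM. Kit stood at 3.68 FPKM in inflamed tumour 4 and 2.43 to 4.77 FPKM in the others, and Epcam at 341 FPKM and 331 to 419 FPKM. The part of these cells in the Tlr4 level was not tested. In desert tumours, tumour 4 was lowest for 7 of the 10 genes and highest for Tlr2, Tlr5 and Ly96.

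**Figure D4:**
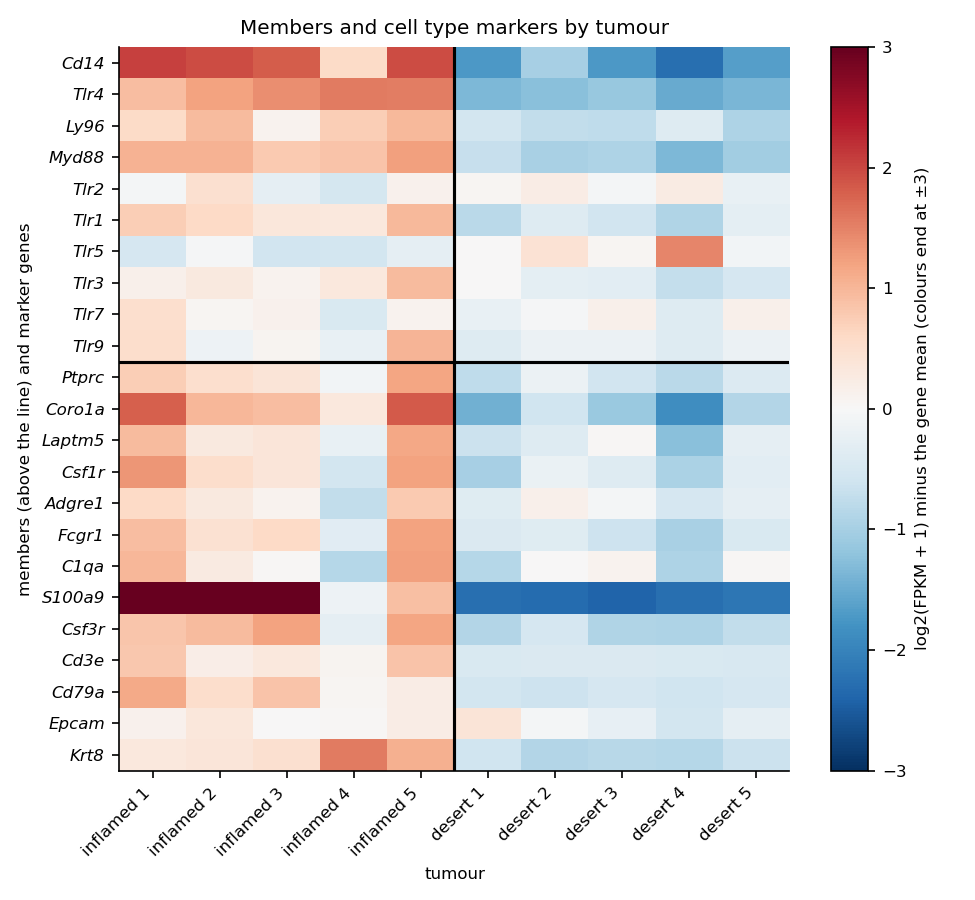
Level of the 10 genes and of 13 cell type markers in each tumour, as log2(FPKM + 1) minus the gene's mean over 10 tumours, with inflamed columns left of desert columns and colours that end at 3 in either direction. Inflamed tumour 4 is pale or blue for most leukocyte and macrophage markers and red for Tlr4. Its FPKM sum was the largest, and the levels shown are not corrected for that.

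Promoter sequences are shown for 4 of the genes, chosen to set a gene that was higher (Myd88, Tlr3) beside one that was not called (Tlr2) and one that was called lower (Tlr5). They are RefSeq windows on GRCm38.p6 from 250 bases before to 50 bases after the start of the gene, and 6 of the 10 genes matched one (Tlr1, Tlr2, Tlr3, Tlr5, Tlr9 and Myd88). These windows are on another coordinate frame than the gene positions above, which are given as the deposited table holds them. The patterns searched on both strands were GGGANNNNCC for NF-kB, GAAANNGAAA for the interferon-stimulated response element, GAGGAAG for the core of PU.1 sites, a factor of myeloid and B cells, and TGANTCA for AP-1. Capitals mark the matches, and sequences run 5′ to 3′ along the gene.
Myd88 (chr9:119339969-119340268, minus strand): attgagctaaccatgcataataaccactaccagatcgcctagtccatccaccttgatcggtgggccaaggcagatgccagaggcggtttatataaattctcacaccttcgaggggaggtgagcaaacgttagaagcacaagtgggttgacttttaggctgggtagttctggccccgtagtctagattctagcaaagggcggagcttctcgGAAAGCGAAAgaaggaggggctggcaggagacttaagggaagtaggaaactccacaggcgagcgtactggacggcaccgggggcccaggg
Tlr3 (chr8:45410331-45410630, minus strand): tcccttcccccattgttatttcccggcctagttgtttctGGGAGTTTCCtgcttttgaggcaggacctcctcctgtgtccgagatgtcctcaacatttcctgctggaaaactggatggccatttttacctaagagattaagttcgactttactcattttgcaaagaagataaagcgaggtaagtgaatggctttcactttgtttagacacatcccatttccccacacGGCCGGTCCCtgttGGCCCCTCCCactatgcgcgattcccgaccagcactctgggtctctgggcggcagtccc
Tlr2 (chr3:83841559-83841858, minus strand): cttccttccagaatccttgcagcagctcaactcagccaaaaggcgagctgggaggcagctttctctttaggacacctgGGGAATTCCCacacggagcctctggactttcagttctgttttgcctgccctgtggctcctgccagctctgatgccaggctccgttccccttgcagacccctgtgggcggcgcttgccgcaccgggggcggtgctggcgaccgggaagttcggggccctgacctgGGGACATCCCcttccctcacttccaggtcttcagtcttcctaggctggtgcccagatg
Tlr5 (chr1:182954538-182954837, plus strand): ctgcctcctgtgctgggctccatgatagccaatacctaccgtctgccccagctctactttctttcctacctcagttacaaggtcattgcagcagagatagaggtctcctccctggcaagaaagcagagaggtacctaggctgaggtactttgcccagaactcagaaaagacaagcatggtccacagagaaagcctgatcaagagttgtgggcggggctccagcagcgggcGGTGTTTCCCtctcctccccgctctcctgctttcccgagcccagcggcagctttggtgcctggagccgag

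The Myd88 window held 1 interferon-response match, from base -40 to -31 relative to the start, and no match to the other patterns; 3.44% of 32851 promoter windows of the same length held that pattern. The NF-kB pattern occurred in 20.7% of all windows, in the Tlr2 window at -172 to -163 and -8 to 2, in the Tlr3 window at -211 to -202, -23 to -14 and -9 to 1, and in the Tlr5 window at -20 to -11. It was thus present in the window of a gene called higher, of one not called and of one called lower. The PU.1 core, found in 13.6% of all windows, occurred in Tlr1 and Tlr9, and the AP-1 pattern, found in 7.81%, in Tlr9. A match describes letters in this window and is not a measured binding site.

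Beyond the 10 genes, 84 genes of the same pathways in 8 lists were read from the same limma test, of which 37 were higher and 18 lower in inflamed tumours, against 31.0% and 31.2% of all tested genes. The 84 include the genes under the filter that are given with their lists below. With TPM, 27 were higher and 21 lower, where 3769 of all 16750 tested genes were higher and 6989 lower. The lists differed in direction.

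The remaining receptors of the family had 2 of 7 genes higher, near the 31.0% of all tested genes. Of the rest, 4 were not called and 1 was under the filter, and the median difference was 0.44. Tlr12 and Cd180 of this list averaged under 0.5 FPKM in desert tumours and passed the filter through the inflamed type. Tlr12, which in mouse recognises a protein of protozoa, averaged 1.36 ± 0.914 FPKM in inflamed tumours and 0.137 ± 0.0687 FPKM in desert tumours (SD, n = 5 per type; difference 0.99, adjusted p = 0.00138). Ly86, also called MD-1 and related to Ly96, averaged 1.88 ± 1.12 FPKM in inflamed tumours and 0.594 ± 0.185 FPKM in desert tumours (adjusted p = 0.0275), a call that held under 12 of 18 alternatives. Tlr13, a mouse receptor for bacterial ribosomal RNA, averaged 1.68 ± 0.849 FPKM in inflamed tumours and 0.715 ± 0.338 FPKM in desert tumours without passing the test (adjusted p = 0.0613).

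Of the 3 genes that bind or deliver lipopolysaccharide, 2 were tested and neither was called. Bpi, a protein that binds and neutralises lipopolysaccharide, was under the filter: it was listed at 0 in every inflamed tumour and stood at 0.0338 to 0.192 FPKM (1 to 7 reads) in desert tumours, and with no filter it was called lower (adjusted p = 0.00432 by limma). Lbp, the serum protein that passes lipopolysaccharide to Cd14, averaged 3.62 ± 1.79 FPKM in inflamed tumours and 4.03 ± 0.653 FPKM in desert tumours (SD, n = 5 per type; adjusted p = 0.482 by limma). Cd36, a scavenger receptor that works with Tlr2, averaged 3.11 ± 1.5001 FPKM in inflamed tumours and 1.71 ± 0.983 FPKM in desert tumours (adjusted p = 0.0984 by limma).

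Adaptors and kinases leaned the opposite way to Myd88, with 3 of 15 higher, 8 lower and 4 not called, and a median difference of -0.30. The 3 that were higher were Tirap, which bridges Tlr2 and Tlr4 to Myd88, Ticam1, the adaptor of Tlr3, and Ikbke, a kinase of interferon induction. Tirap averaged 11.1 ± 1.05 FPKM in inflamed tumours and 4.08 ± 0.250 FPKM in desert tumours (SD, n = 5 per type; difference 1.25, adjusted p = 3.34e-07 by limma), and Ticam1 averaged 9.35 ± 1.60 FPKM in inflamed tumours and 5.12 ± 0.834 FPKM in desert tumours (difference 0.75, adjusted p = 2.82e-04 by limma). Ticam2 (TRAM), which links Tlr4 to Ticam1, went the other way, at 0.287 ± 0.137 FPKM in inflamed tumours and 1.71 ± 0.122 FPKM in desert tumours (difference -1.08, adjusted p = 6.36e-06 by limma). With its inflamed mean under 0.5 FPKM, Ticam2 passed the filter through the desert type. Also lower were Pik3ap1 (BCAP), an adaptor to PI3K, at 5.70 ± 2.54 FPKM in inflamed tumours and 34.9 ± 6.13 FPKM in desert tumours (difference -2.50, adjusted p = 9.65e-06 by limma), and Tab2, which joins the kinase Map3k7 to ubiquitin chains, at 23.4 ± 2.88 FPKM in inflamed tumours and 44.5 ± 2.38 FPKM in desert tumours (difference -0.90, adjusted p = 1.01e-05 by limma). The other 5 that were lower were Tab1, Tab3, Map3k7, Traf3 and Irak2, with the call of Tab1 lost without inflamed tumour 2 or 3. The kinase Irak1 stood at 21.8 ± 1.88 FPKM in inflamed tumours and 22.6 ± 4.59 FPKM in desert tumours (adjusted p = 0.836 by limma), and Irak4, Traf6 and Tbk1 did not pass the test (adjusted p of 0.312 to 0.761).

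Transcription factors of the NF-kB and IRF families with their kinases and inhibitors were mixed, with 5 of 15 higher, 4 lower and 6 not called. These counts are near the shares over all tested genes, 31.0% higher and 31.2% lower. The median difference was 0.16. Irf7, which drives interferon genes downstream of Tlr7 and Tlr9, averaged 33.6 ± 15.4 FPKM in inflamed tumours and 5.47 ± 4.73 FPKM in desert tumours (SD, n = 5 per type; difference 2.56, adjusted p = 4.94e-04 by limma). Nfkbiz, an inducible NF-kB cofactor, averaged 34.8 ± 3.11 FPKM in inflamed tumours and 6.46 ± 2.33 FPKM in desert tumours (difference 2.31, adjusted p = 1.13e-06 by limma), and Nfkbia, an inhibitor that NF-kB itself induces, averaged 35.9 ± 5.76 FPKM in inflamed tumours and 15.7 ± 2.18 FPKM in desert tumours (difference 1.14, adjusted p = 2.23e-05 by limma). The others higher were Chuk and Nfkb2. Lower were Nfkb1, Nfkbib, Nfkbie and Irf3, with differences between -0.62 (Nfkbie) and -0.36 (Nfkbib). The call of Nfkbib held under 13 of 19 alternatives, and those of Chuk and Nfkb2 were lost with TPM. Rela, the transactivating NF-kB subunit, stood at 26.5 ± 2.40 FPKM in inflamed tumours and 28.4 ± 3.26 FPKM in desert tumours (adjusted p = 0.448 by limma).

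The genes that carry, cut or fold the endosomal receptors had 7 of 9 higher, none lower and 2 not called, with a median difference of 0.67. Unc93b1, which takes Tlr3, Tlr7 and Tlr9 to endosomes, averaged 24.2 ± 8.86 FPKM in inflamed tumours and 8.12 ± 1.82 FPKM in desert tumours (SD, n = 5 per type; difference 1.42, adjusted p = 3.64e-04 by limma). Ctsl, a protease that cleaves these receptors, averaged 38.7 ± 6.87 FPKM in inflamed tumours and 13.3 ± 2.02 FPKM in desert tumours (difference 1.47, adjusted p = 4.33e-06 by limma). Hsp90b1, the chaperone that most Toll-like receptors need, averaged 144 ± 26.6 FPKM in inflamed tumours and 91.9 ± 30.6 FPKM in desert tumours (difference 0.67, adjusted p = 0.0125 by limma), a call lost with TPM. Ctsb, another such protease, averaged 148 ± 13.9 FPKM in inflamed tumours and 128 ± 33.6 FPKM in desert tumours without passing the test (adjusted p = 0.230 by limma). Cnpy3, Lgmn, Ctss and Ap3b1 were higher too, but the call of Cnpy3 was lost with TPM, that of Ctss held under 8 of 19 alternatives and that of Ap3b1 under 6 of 19, and with TPM the difference of Ap3b1 turned to -0.036.

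Brakes on the pathway had 5 of 9 higher, 2 lower and 2 not called, with a median difference of 0.55. Zc3h12a (Regnase-1), an RNase that destroys cytokine mRNAs, averaged 25.7 ± 5.02 FPKM in inflamed tumours and 2.11 ± 1.08 FPKM in desert tumours (SD, n = 5 per type; difference 3.14, adjusted p = 3.22e-07 by limma). Tnfaip3 (A20), a deubiquitinase that limits NF-kB, averaged 7.65 ± 1.999 FPKM in inflamed tumours and 2.14 ± 0.591 FPKM in desert tumours (difference 1.45, adjusted p = 5.62e-05 by limma). Irak3, Tnip1 and Socs1 were also higher, with the call of Socs1 held under 7 of 18 alternatives. Tollip and Sigirr, both made in epithelia, were lower, with Tollip at 15.8 ± 0.718 FPKM in inflamed tumours and 23.7 ± 3.30 FPKM in desert tumours (difference -0.55, adjusted p = 4.74e-04 by limma).

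Cytokines and mediators that Toll-like receptors induce had the largest median difference of the 8 lists, at 2.18. Of 14 genes, 10 were higher, 1 was lower and 3 were under the filter. The median covers tested genes only. Tnf, Il1b, Il6, Cxcl1, Cxcl2, Ccl3, Ccl4 and Ptgs2 had desert means under 0.5 FPKM, and Il23a an inflamed mean under 0.5 FPKM. These genes passed the filter through the type where they were high, so the filter had a part in the count and the median. Il1b, a cytokine of myeloid cells, averaged 16.5 ± 7.37 FPKM in inflamed tumours and 0.176 ± 0.0796 FPKM in desert tumours (SD, n = 5 per type; difference 3.74, adjusted p = 3.60e-06 by limma). Ptgs2 (COX-2), the enzyme of prostaglandin synthesis, averaged 8.75 ± 5.22 FPKM in inflamed tumours and 0.155 ± 0.121 FPKM in desert tumours (difference 2.96, adjusted p = 3.34e-06 by limma), and Cxcl10, an interferon-induced chemokine, averaged 12.6 ± 7.71 FPKM in inflamed tumours and 1.39 ± 1.15 FPKM in desert tumours (difference 2.45, adjusted p = 3.97e-04 by limma). The others higher were Tnf, Il6, Cxcl1, Cxcl2, Ccl3, Ccl4 and Ccl5. Il23a, the specific subunit of interleukin-23, was the one lower, at 0.323 ± 0.0808 FPKM in inflamed tumours and 5.68 ± 2.72 FPKM in desert tumours (difference -2.24, adjusted p = 1.95e-05 by limma). These genes are also induced by other pathways, and the neutrophil and T cell markers given above were higher in the same tumours; their part in the result was not tested.

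**Figure D5:**
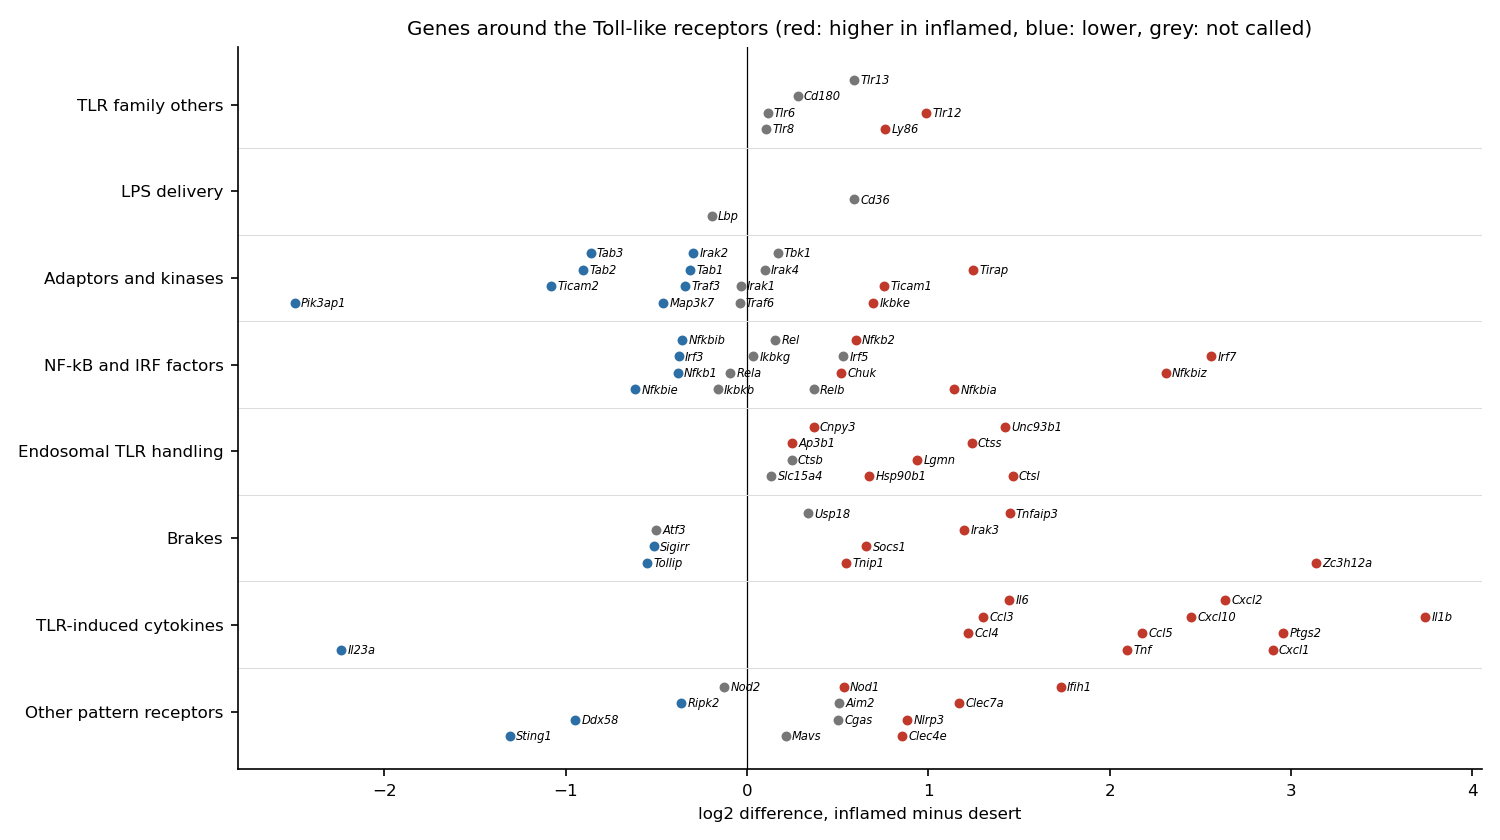
Difference of each tested gene (inflamed minus desert, log2(FPKM + 1)) in the 8 pathway lists, each point a gene, in red where higher, blue where lower and grey where not called by limma. Of the induced cytokines, whose median was 2.18, Il23a alone lies below 0, and adaptors and kinases, whose median was -0.30, lie on both sides.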

How the data were processed

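The authors deposited 1 table of FPKM values per gene for 10 tumour libraries, and the submitters' processing notes name mm10. The sources used here do not give the aligner, the counter, the annotation or strandedness. The protocol speaks of 6 tumours, while the series holds 10. FPKM times gene length gave whole reads within 0.05 for 100% of values above 0, which is the source of the read numbers.

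Genes with a mean of at least 0.5 FPKM were tested with limma 3.58.1 (R 4.3.3) on log2(FPKM + 1), with intensity trend and robust moderation, two-sided, and p-values adjusted by Benjamini-Hochberg over 16750 genes. The 10 ratios were tested with exact permutation (Python 3.11.15, scipy 1.17.1) and adjusted over the 10. The procedure was tested on simulated data. Alternatives were an added 0.1, no filter, a filter at 5 FPKM, TPM, median-of-ratios and quantile scaling, no trend, voom on recovered reads, a block on tumour number, and leaving out each tumour. The members and lists were chosen with earlier results of these data known. Pathway genes were named by a rule: in each list, the 2 that differed most, the 2 of highest mean level and those called against the majority; values of Ticam2 and a few others were added after they were seen. Sequences come from RefSeq (GRCm38.p6) and shared stretches from GENCODE transcripts.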

Additional observations from a re-analysis of the deposited data

Results flagged for a closer look

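In the 20 groups of 5 tumours (10 genes, 2 types), 3 had 1 tumour whose gap to its nearest neighbour took more than 0.71 of the group's range, Dixon's limit for 5 values, where chance gives about 1 in 20. For Tlr3, inflamed tumour 5 stood at 13.1 FPKM above its nearest neighbour at 8.08 FPKM. For Cd14, inflamed tumour 4 stood at 25.0 FPKM below its nearest neighbour at 60.0 FPKM. For Tlr5, desert tumour 4 stood at 3.70 FPKM above its nearest neighbour at 1.30 FPKM.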

How the results depend on the processing

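Cd14, Myd88 and Tlr3 were called higher under each of 19 alternatives, and Tlr4, Ly96 and Tlr1 under each of the 18 that could test them. Tlr2 was called under none of 19 and Tlr7 under none of 18; Tlr5 and Tlr9 changed as given above. The count of genes called was 10418, and 5854 with the filter at 5 FPKM; without 1 tumour it ran from 9801 to 10359. That filter left 4 of the 10 genes, of which 3 were higher and 0 lower. Of the 10 genes, 0 were lower with no filter, and without 1 tumour 0 to 1 were lower and 6 to 7 higher. Of the pathway genes, 20 were higher with the filter at 5 FPKM, where 2784 of all 8466 tested genes were higher. Without 1 tumour, 33 to 39 of the pathway genes were higher. The difference of Ap3b1 turned to -0.036 with TPM. Voom on recovered reads called 11022 of 17399 genes. Quantile normalization moved the median of all tested genes to -0.11 and the share of higher calls to 42.9%.

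Among the ratios, Cd14 to Tlr4 ran from 0.50 to 1.03 without 1 tumour (1.03 without inflamed tumour 4). It turned to -0.67 with 0.1 added and -0.26 with TPM. Without 1 tumour, Tlr3 to Tlr7 ran from 0.45 to 0.75 and Tlr9 to Tlr7 from 0.20 to 0.48. Tlr9 to Tlr7 was 1.04 with 0.1 added and 0.77 with TPM. Tumour numbers did not pair the samples: same-numbered tumours correlated at -0.07 to 0.08 in their deviations from the group means, and 1 of 5 correlated best with its own number. With the replicate block limma called 9925 genes and the same number of the 10 genes, 6, higher. An exact sign-flip test in such pairs cannot go below 0.0625, so the ratios that passed could not pass in it: Cd14 to Ly96 (1.995), Ly96 to Tlr4 (-1.30), Tlr2 to Tlr4 (-2.75), Tlr2 to Tlr1 (-1.29), Cd14 to Csf1r (2.19) and Tlr2 to Csf1r (-1.25) had an adjusted p of 0.104, and Tlr4 to Csf1r (1.5005) one of 0.139. Depth limits the genes of few reads most: Tlr9 and Tlr4 in desert tumours and Tlr5 and Tlr7 in inflamed tumours.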

Other observations

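Other receptors for microbial molecules, listed with adaptors and a kinase of their pathways, were mixed. Of these 12 genes 5 were higher in inflamed tumours, 3 lower and 4 not called. Over all tested genes 31.0% were higher and 31.2% lower. The median difference of these 12 genes was 0.51 on the log2(FPKM + 1) scale. Nlrp3 and Clec4e averaged under 0.5 FPKM in desert tumours. They passed the filter through the inflamed type, so the filter had a part in the count and the median. Ifih1 (MDA5), a sensor of long double-stranded RNA in the cytosol, averaged 8.32 ± 2.80 FPKM in inflamed tumours and 1.91 ± 1.25 FPKM in desert tumours (SD, n = 5 per type; difference 1.73, adjusted p = 3.18e-04 by limma). Ddx58 (RIG-I), the sensor of short double-stranded RNA, went the other way, at 9.92 ± 4.33 FPKM in inflamed tumours and 19.2 ± 3.56 FPKM in desert tumours (difference -0.95, adjusted p = 0.00365 by limma). Sting1, the adaptor of cytosolic DNA sensing, was also lower, at 21.7 ± 6.91 FPKM in inflamed tumours and 55.1 ± 16.9 FPKM in desert tumours (difference -1.31, adjusted p = 0.00145 by limma). Ripk2, the kinase of the peptidoglycan sensors Nod1 and Nod2, was lower by a smaller step (difference -0.36, adjusted p = 0.0229 by limma), and Nod1, Nlrp3, Clec7a and Clec4e were higher. The calls of Ripk2 and Clec7a each held under 15 of 18 alternatives, with highest adjusted p of 0.0571 for Ripk2 and 0.0545 for Clec7a by limma, and that of Nod1 was lost with TPM.

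For each of the 10 genes, the 3 genes of at least 5 FPKM with the most like profile over the 10 libraries were looked up among 7926 candidates, by the root mean square difference between mean-centred log2(FPKM + 1) profiles. For Cd14 they were C3, a complement protein, at 0.23, Tgfbi, an extracellular matrix protein, at 0.24 and Stom, a membrane protein, at 0.32, where the profile of Cd14 itself had an SD of 1.83. For Tlr4 they were Adap1 at 0.16, Shroom3 at 0.17 and Myo6 at 0.18, where Tlr4 had an SD of 1.41. Shroom3 shapes epithelial cells and Myo6 is a motor of the actin cytoskeleton. For Myd88 they were the cytokine receptor genes Tnfrsf1a at 0.14 and Ifngr1 at 0.15, and the actin regulator Arpc1b at 0.15, where Myd88 had an SD of 1.07. For Tlr3 they were Net1, the RNA-editing enzyme gene Adar and Dtx3l, at 0.14 to 0.16, and for Tlr9 Tapbpl, Psme1 and Rnf213, at 0.16 to 0.23. Such likeness over 10 libraries of 2 types rests largely on the difference between the types.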
